A study of Mus musculus with 25 samples.

Results

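The mitochondrial chaperones and proteases were followed as 10 genes chosen by name for their roles, namely Hspd1, Hspe1, Hspa9, Trap1, Clpp, Clpx, Lonp1, Yme1l1, Afg3l2 and Htra2. All 10 were present among the 8829 genes of the expression table, so that none was lost to the filter on low reads. They were measured in the gastrocnemius, a hindlimb muscle, of 25 male SAMP8 mice, an inbred strain with accelerated senescence. Thymol, a plant monoterpene phenol, was given by oral gavage at 20 mg/kg per day to 14 mice (Thymol). The corn oil vehicle was given to 11 mice (Control). Treatment lasted 3 months from the age of 8 months, with dosing on most but not all days of each week. Both groups were SAMP8, and a strain with normal ageing was not analysed here. Each mouse gave 1 library of total RNA, sequenced from the 3' end of transcripts.

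Proteins that enter a mitochondrion arrive unfolded. Hspa9 (mortalin) pulls them into the matrix, the Hspd1/Hspe1 chaperonin (HSP60 with its lid HSP10) encloses and folds them, and Trap1, a relative of HSP90, assists in the matrix. What cannot be folded is cut by the ClpXP protease (Clpp, which cuts, with Clpx, which unfolds) and by Lonp1 in the matrix, by Yme1l1 and Afg3l2 in the inner membrane, and by Htra2 in the intermembrane space. When unfolded protein accumulates in the matrix, cells can raise the transcripts of several of these genes, a programme known as the mitochondrial unfolded protein response, in which CHOP (Ddit3) and relatives of ATF4 have been named as factors. The study also blotted markers of this response in SAMP8 mice, and its antibodies included those against HSP60, CLPP and CHOP. The paper reports that levels of the protein markers did not change with thymol. The transcripts of the genes of HSP60, CLPP and CHOP are described here, and the protein values were not analysed here.

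Promoter sequences were shown for the members whose window held a motif of a stress-linked factor, to set the letters beside the expression values. RefSeq windows (GRCm38.p6, from 250 bases before to 50 bases after the start of a gene) were given for 7 of the 10 members. Hspd1 had 2 windows, one for each of its start sites in RefSeq. The genes lie head to head on chromosome 1, Hspd1 at chr1:55077835-55088243 on the minus strand and Hspe1 at chr1:55088132-55091307 on the plus strand (GENCODE M21, GRCm38), and their gene bodies overlap by 112 bases. The Hspe1 window, chr1:55087898-55088197, shares 285 bases with the Hspd1 window at chr1:55087883-55088182, which lies inside the Hspd1 gene body, but only 4 bases with the Hspd1 window at its annotated start, chr1:55088194-55088493. The latter held none of the motifs marked here. Capitals mark, in order, a C/EBP-CHOP core (TGCAATC), a heat shock element core (TTCNNGAA), and a second such core that overlaps a pair of ETS sites (CCGGAAG on either strand):
Hspe1 promoter, plus strand: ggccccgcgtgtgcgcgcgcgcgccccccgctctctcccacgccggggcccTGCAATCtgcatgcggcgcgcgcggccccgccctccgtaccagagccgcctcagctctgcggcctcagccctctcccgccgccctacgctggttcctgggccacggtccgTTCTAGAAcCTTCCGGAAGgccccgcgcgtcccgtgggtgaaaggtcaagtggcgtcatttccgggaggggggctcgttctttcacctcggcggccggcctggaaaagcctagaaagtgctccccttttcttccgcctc
In the Clpp sequence (chr17:56990214-56990313, plus strand) the capitals mark a heat shock element core that overlaps an ETS site. In those of Lonp1 (chr17:56626854-56626953, minus strand) and Trap1 (chr16:4077761-4077860, minus strand) they mark the CRE core TGACGT, which Trap1 held on both strands:
Clpp: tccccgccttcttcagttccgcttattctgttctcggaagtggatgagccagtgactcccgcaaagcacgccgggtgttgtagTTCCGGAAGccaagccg
Lonp1: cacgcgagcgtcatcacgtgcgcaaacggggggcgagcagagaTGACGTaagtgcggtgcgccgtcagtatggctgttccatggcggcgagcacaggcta
Trap1: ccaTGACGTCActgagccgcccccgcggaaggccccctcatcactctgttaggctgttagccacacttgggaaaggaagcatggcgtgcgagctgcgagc

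Each motif was searched on both strands of all 32851 windows of this length. The heat shock element core was present in 8.52% of them and in the windows of Hspe1, Clpp and, at the inner start site, Hspd1. The C/EBP-CHOP core was present in 2.02%, and among the members only in the sequence common to Hspe1 and the inner Hspd1 window, at position -199 from the Hspe1 start. TGATGCAA, an ATF4 element, was present in 0.895% of windows and in no member's window. The CRE core was present in 7.51%, and the ETS site in 8.86%, including those of Hspe1, Clpp, Yme1l1 and the inner Hspd1 start. The NRF1 core GCATGCGC was present in 2.71%, and among the members in Clpx. These are matches of letters and were not tested as binding sites.

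The libraries held between 4463818 and 9463418 reads on the genes of the table, with a median of 7503259, and 22% to 34% of these reads came from genes of the mitochondrial genome. Values are log2 CPM, which scales the reads of a gene to those of its library. The skeletal muscle markers were all present, with 12 of 12 genes at mean levels of 10.30 to 15.04 log2 CPM. Control 18, Control 19 and Thymol 20 lay at the extremes of the first, the third and the second principal component of all genes, so the members' differences were also computed without these 3 libraries. The tissue was whole muscle, in which fewer cells of a type and less RNA per cell cannot be told apart.

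No member passed the test of Thymol against Control. By limma with Benjamini-Hochberg adjustment over all 8829 genes, 0 of 10 members and 0% of all genes passed an adjusted p of 0.05. At an unadjusted p of 0.05, 0 of 10 members passed, against 312 of all genes (3.53%), and the smallest adjusted p of any gene was 0.741. In 8 of the 10 members the mean was higher with thymol and in 2 it was lower, beside 4375 of all 8829 genes higher. Among the 8, Yme1l1 (0.00062), Lonp1 (0.0033) and Trap1 (0.0066) had log2 fold changes near 0. The median log2 fold change of the members was 0.016, beside -0.0014 over all genes. The 95% confidence interval stayed within 0.25 log2 of no change (a 1.19-fold change) in 8 members, and reached past it on both sides in Hspe1 and on the lower side in Htra2. Without the 3 libraries that stood apart, the log2 fold change was 0.025 for Hspd1, -0.050 for Hspe1, -0.043 for Hspa9, 0.023 for Trap1, 0.090 for Clpp, 0.056 for Clpx, -0.013 for Lonp1, -0.0044 for Yme1l1, -0.013 for Afg3l2 and -0.13 for Htra2, none of which passed the test.

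**Figure D1:**
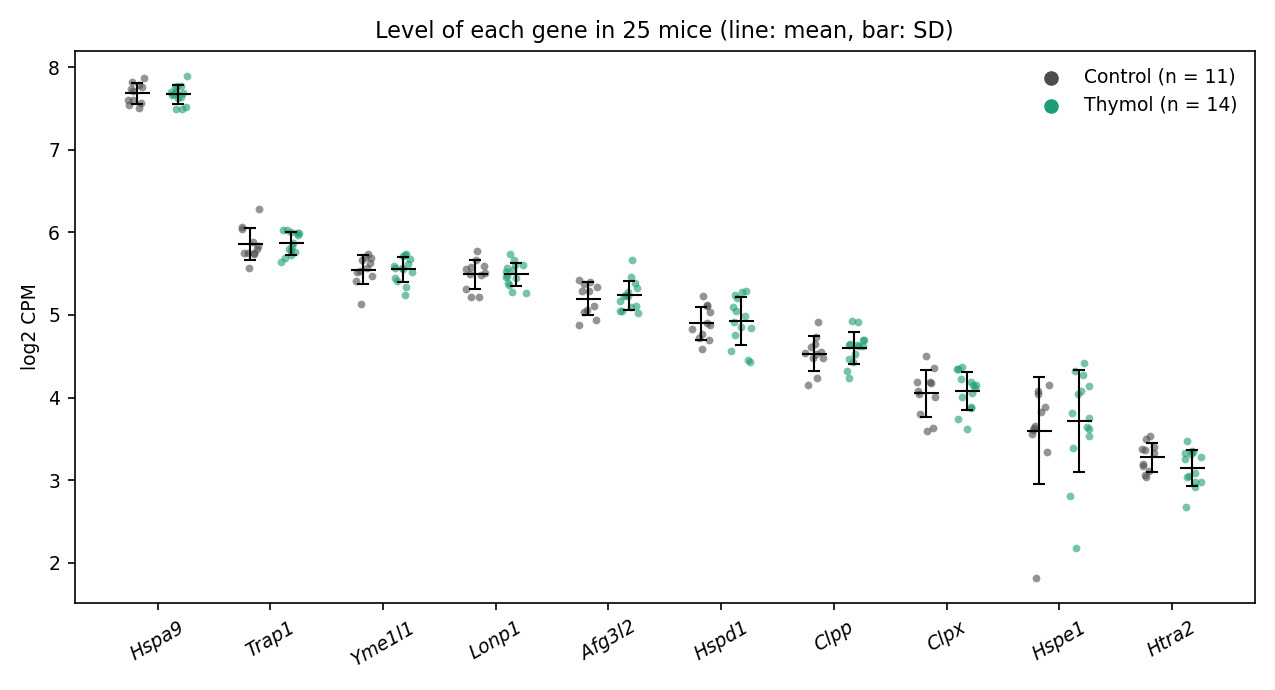
Level of each of the 10 genes in every mouse, in log2 CPM, with genes ordered by their mean, points for mice (Control grey, n = 11; Thymol green, n = 14), a line for the mean and bars for the SD. The groups lie over each other in all 10 genes, and Hspe1 has the widest spread, with Control 19 at 1.82 and Thymol 6 at 2.18 log2 CPM below the rest.

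The chaperonin ring gene Hspd1 ranged from 4.58 to 5.23 log2 CPM in Control (median 4.88) and from 4.43 to 5.29 in Thymol (median 4.95). The groups overlapped, and both the lowest and the highest mouse had received thymol. The means were 4.90 ± 0.20 (SD, n = 11) and 4.93 ± 0.29 (SD, n = 14), a log2 fold change of 0.029 ± 0.10 (SE; 95% confidence interval -0.18 to 0.23; unadjusted p = 0.776; adjusted p = 0.9999, limma). Hence a rise of the Hspd1 transcript of more than 1.18-fold, or a fall to less than 0.885-fold, lay outside the interval.

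Hspe1, the lid of the same chamber, was the most variable member. It ranged from 1.82 to 4.16 log2 CPM in Control (median 3.66) and from 2.18 to 4.42 in Thymol (median 3.78). Each group held mice far below its own median, Control 19 in one and Thymol 6 (2.18) and Thymol 16 (2.81) in the other, while the other 22 mice lay between 3.35 and 4.42. The means were 3.60 ± 0.64 (SD, n = 11) and 3.72 ± 0.62 (SD, n = 14), and the log2 fold change was 0.11 ± 0.23 (SE; 95% confidence interval -0.35 to 0.58; unadjusted p = 0.620; adjusted p = 0.9999, limma). Without Control 19 the difference was -0.064, without Thymol 6 it was 0.23 and without Thymol 16 it was 0.18. It was not computed without all of these mice together. The SD within groups, 0.628, was 2.20 times that of genes of similar level and 3.93 times what counting reads alone would give.

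The low Hspe1 values were not accompanied by low Hspd1. Control 19 had 25 reads of Hspe1 and 266 of Hspd1, Thymol 6 had 33 and 302, and Thymol 16 had 56 and 281. In these mice Hspd1 ranked between the 18th and the 25th of 25 from the lowest. Hspe1 made up 8.59% of the reads of the pair in Control 19 (exact 95% interval 5.64% to 12.4%), 9.85% in Thymol 6 (6.88% to 13.6%) and 16.6% in Thymol 16 (12.80% to 21.03%). In the other mice the share lay between 22.4% and 42.5%, and the group medians were 31.3% in Control and 34.5% in Thymol. The highest share was that of Control 18, with 97 reads of Hspe1 and 131 of Hspd1. Across the 25 mice the share varied 11.4 times more than its counting variance.

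Both genes have copies elsewhere in the genome, which limits their counts. Of the words of 31 bases in the last 500 bases of the transcripts, 68.5% of those of Hspe1 also occurred in transcripts of other genes, mostly in the retrogene AC117239.2, and 40.8% of those of Hspd1 did, mostly in the pseudogene Hspd1-ps3. In the other 8 members no word was shared. Trap1 overlaps Dnase1 on the opposite strand, Htra2 overlaps Loxl3 and Aup1, and the strand setting of the counting is not given in the sources used here, so that reads of these neighbours may be included. Reads that fit several places may have been left uncounted, and the levels of Hspd1 and Hspe1 are therefore uncertain. Whether the low Hspe1 counts of Control 19, Thymol 6 and Thymol 16 are less transcript, or reads that were not placed or differ in sequence, was not tested. Neither of these copies was in the table.

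**Figure D2:**
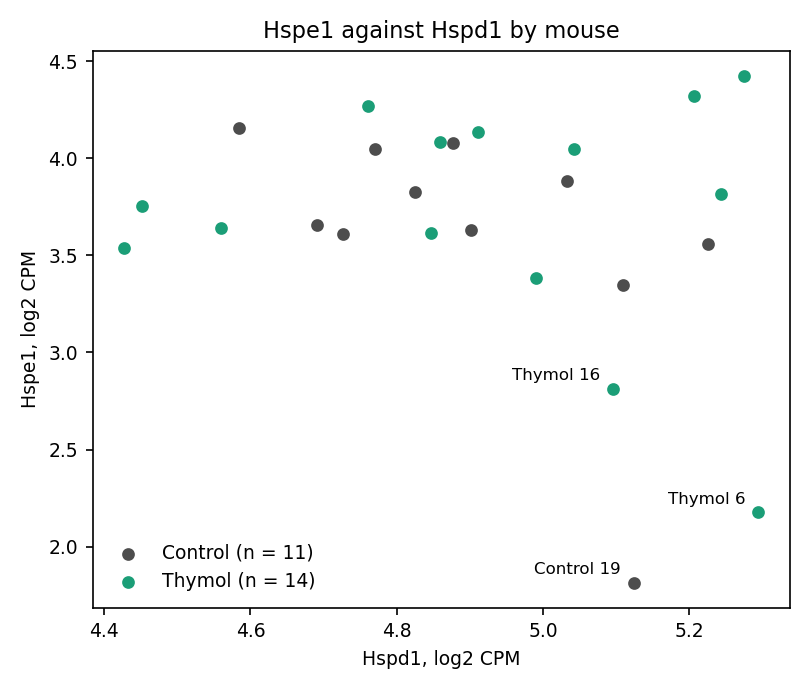
Hspe1 against Hspd1 in each mouse, both in log2 CPM, with Control (n = 11) in grey and Thymol (n = 14) in green. The 3 named mice lie below the others in Hspe1 and at 5.10 to 5.29 log2 CPM in Hspd1.

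Hspa9, the matrix HSP70 and motor of protein import, had the highest level and the smallest spread of the members. It lay between 7.50 and 7.87 log2 CPM in Control (median 7.71) and between 7.49 and 7.89 in Thymol (median 7.68). The groups shared nearly the same range. The log2 fold change was -0.011 ± 0.052 (SE; 95% confidence interval -0.12 to 0.094; unadjusted p = 0.831; adjusted p = 0.9999, limma), from 7.68 ± 0.12 (SD, n = 11) to 7.67 ± 0.11 (SD, n = 14). The interval corresponded to 0.923-fold to 1.07-fold, the narrowest of the 10.

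Trap1, the matrix HSP90 (chr16:4039971-4077827, minus strand, 18 exons), ranged from 5.57 to 6.29 log2 CPM in Control (median 5.80) and from 5.64 to 6.03 in Thymol (median 5.85). All 14 thymol mice lay inside the control range, whose ends were Control 10 and Control 1. The log2 fold change was 0.0066 ± 0.069 (SE; 95% confidence interval -0.13 to 0.15; unadjusted p = 0.925, limma).

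Of the matrix proteases, Clpp (chr17:56990305-56996188, plus strand, 6 exons) ranged from 4.15 to 4.91 log2 CPM in Control (median 4.54) and from 4.23 to 4.93 in Thymol (median 4.63). In 9 of 14 thymol mice it lay above the control median, and 12 of 14 lay inside the control range. The means were 4.53 ± 0.21 (SD, n = 11) and 4.599 ± 0.195 (SD, n = 14), with a log2 fold change of 0.066 ± 0.084 (SE; 95% confidence interval -0.11 to 0.24; unadjusted p = 0.436; adjusted p = 0.9999, limma). A rise of the transcript beyond 1.18-fold lay outside the interval.

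Clpx, the unfoldase that feeds Clpp (chr9:65294260-65330658, plus strand, 14 exons), ranged from 3.59 to 4.50 log2 CPM in Control (median 4.07) and from 3.62 to 4.37 in Thymol (median 4.13). All 14 thymol mice lay inside the control range. Its log2 fold change was 0.026 ± 0.10 (SE; 95% confidence interval -0.18 to 0.24; unadjusted p = 0.800, limma).

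Lonp1, the other large matrix protease (chr17:56614297-56626887, minus strand, 18 exons), ranged from 5.22 to 5.77 log2 CPM in Control (median 5.51) and from 5.26 to 5.73 in Thymol (median 5.50). Again all 14 thymol mice lay inside the control range. Its log2 fold change was 0.0033 ± 0.067 (SE; 95% confidence interval -0.13 to 0.14; unadjusted p = 0.961, limma).

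In the inner membrane, Yme1l1, the protease that faces the intermembrane space (chr2:23156369-23199260, plus strand, 19 exons), ranged from 5.13 to 5.73 log2 CPM in Control (median 5.57) and from 5.24 to 5.73 in Thymol (median 5.56). Its log2 fold change of 0.00062 ± 0.067 (SE; 95% confidence interval -0.14 to 0.14; unadjusted p = 0.993, limma) was the smallest of the members. Afg3l2, the subunit that faces the matrix, ranged from 4.88 to 5.43 in Control (median 5.29) and from 5.02 to 5.66 in Thymol (median 5.23). Although its mean was higher with thymol, by 0.039 ± 0.077 (SE; 95% confidence interval -0.12 to 0.20; unadjusted p = 0.613, limma), in 10 of the 14 treated mice it was under the median of Control.

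Htra2, the serine protease of the intermembrane space (chr6:83051266-83055273, minus strand, 8 exons), had the lowest level and, on the log2 scale, the largest difference in absolute size. It ranged from 3.04 to 3.53 log2 CPM in Control (median 3.33) and from 2.67 to 3.48 in Thymol (median 3.17). The groups overlapped, and in 11 of the 14 treated mice it was under the median of Control. The means were 3.28 ± 0.17 (SD, n = 11) and 3.15 ± 0.22 (SD, n = 14), with a log2 fold change of -0.13 ± 0.096 (SE; 95% confidence interval -0.33 to 0.064; unadjusted p = 0.181; adjusted p = 0.9999, limma). The gene had 44 to 90 reads per library, and its SD within groups, 0.203, was 1.13 times that expected from counting reads alone.

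**Figure D3:**
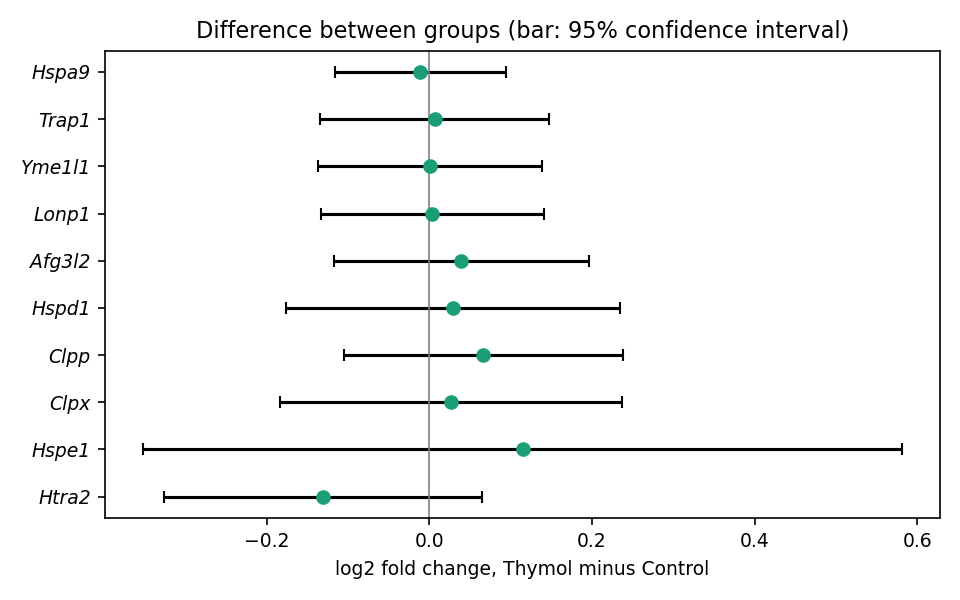
Log2 fold change of each gene, Thymol minus Control, with points for the estimate and bars for the 95% confidence interval from limma (11 Control and 14 Thymol mice). All 10 intervals hold 0, from the narrow one of Hspa9 (-0.12 to 0.094) to the wide one of Hspe1 (-0.35 to 0.58).

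In order of level, 7 of the 9 steps from one member to the next held in at least 21 of 25 mice. Since the kit gives about 1 read per transcript whatever its length, log2 CPM was compared between genes without a length correction, as a level of counted 3' ends. Hspa9 exceeded Trap1, the next, by 1.81 ± 0.19 log2 (SD, n = 25) and did so in all 25 mice. Yme1l1 and Lonp1 were not separated, with a difference of 0.059 ± 0.21 log2 (SD) and Yme1l1 higher in 15 of 25 mice. Clpx lay above Hspe1 by 0.40 ± 0.73 log2 (SD), in 17 of 25 mice, which was likewise within the spread. The partners Clpp and Clpx were separated by 0.51 ± 0.30 log2 (SD), Clpp being higher in 24 of 25 mice. Hspd1 and Hspe1 stood at means of 4.91 and 3.66 log2 CPM over all mice, subject to the reads of their copies.

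Co-variation was then examined among the members, as Pearson's r over the 25 mice after the mean of each group was removed, with permutation p-values from 100000 shuffles of the mice within groups. The measured r among the members was low. The 45 pairs had a median r of 0.041, beside -0.0011 for all pairs of genes in the table, and 25 of the 45 were positive. An r of at least 0.5 was reached by 1 pair, or 2.22%, beside 1.22% of all pairs of genes. No pair passed an adjusted p of 0.05 over the 45 pairs by r or by Spearman's rho, and 3 pairs by r and 2 by rho passed an unadjusted p of 0.05. In 10 genes of mitochondrial content (Cs, Vdac1, Tfam and others) 31.1% of pairs reached this r, with a median of 0.39. In the lists closest to the members by role the values were near those of the members, at 1.54% of pairs (median 0.082) for import genes, 1.10% (median 0.012) for co-chaperones and 0% (median 0.026) for other proteases. The members' SD within groups was from 1.13 (Htra2) to 3.93 (Hspe1) times that expected from counting reads alone. Mean levels were 3.20 to 7.68 log2 CPM for the members and 4.75 to 11.85 for the content genes. The part of counting error in these r values was not tested.

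The highest r was that of Hspa9 with Afg3l2, at 0.50 (permutation p = 0.0136, adjusted p = 0.611; rho 0.45, p = 0.0315, adjusted p = 0.708), with 0.37 within Control, 0.62 within Thymol and 0.41 without the 2 mice farthest from the median of Hspa9. Hspe1 with Afg3l2 had an r of 0.45 (permutation p = 0.0272, adjusted p = 0.611; rho 0.44, p = 0.0278, adjusted p = 0.708; 0.39 without 2 mice). Hspd1 with Clpx had an r of 0.40 (permutation p = 0.0467, adjusted p = 0.7005; rho 0.34, p = 0.0971, adjusted p = 0.841; 0.32 without 2 mice). The lowest was that of Trap1 with Afg3l2, at -0.32 (permutation p = 0.133, adjusted p = 0.736), which came from Control (-0.56) and was near 0 in Thymol (-0.039), a difference that was not tested. None of these relations held after adjustment.

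No pair of partners in one complex, and no pair of close relatives, passed the test. The head to head genes Hspd1 and Hspe1 had an r of -0.26 (permutation p = 0.221, adjusted p = 0.780; rho -0.10, p = 0.636, adjusted p = 0.888). Within groups it was -0.54 in Control and -0.11 in Thymol. Without Thymol 28 and Thymol 21, the mice farthest from the median of Hspd1, it was -0.34. Control 19, Thymol 6 and Thymol 16, the mice of lowest Hspe1, stayed in that value. With each of these left out in turn, r was -0.18, -0.12 and -0.23. The r without all of them together was not computed. The pair Clpp and Clpx had an r of 0.089 (permutation p = 0.678, adjusted p = 0.925; rho -0.037, p = 0.862, adjusted p = 0.888; -0.10 without 2 mice). Yme1l1 and Afg3l2, relatives of the same protease family, had an r of -0.041 (permutation p = 0.850, adjusted p = 0.933; rho 0.036, p = 0.868, adjusted p = 0.888; 0.035 without 2 mice). For Hspa9 and Hspd1 the r was 0.20 (permutation p = 0.331, adjusted p = 0.803; rho 0.14, p = 0.504, adjusted p = 0.888; -0.058 without 2 mice). Hspe1 with Clpx, among the 3 lowest pairs, fell from -0.27 (permutation p = 0.198, adjusted p = 0.780) to -0.0015 without Thymol 6 and Control 19.

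**Figure D4:**
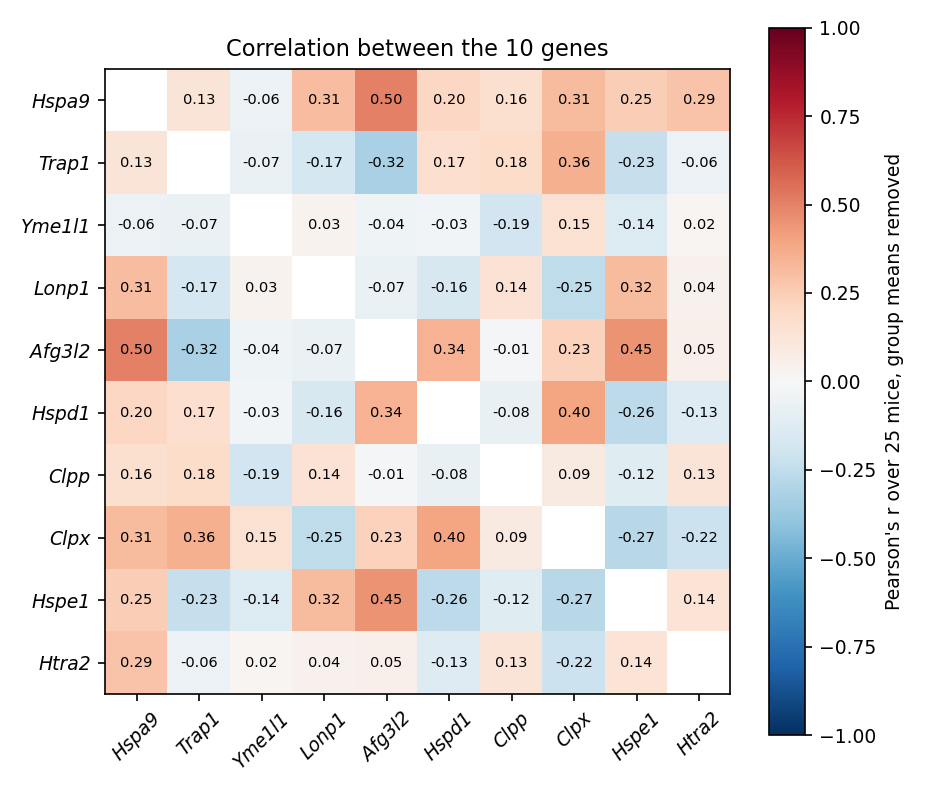
Pearson's r of each pair of the 10 genes over 25 mice after removal of group means, on a colour scale from -1 (blue) to 1 (red), with r printed in each cell. The values run from -0.32 (Trap1 with Afg3l2) to 0.50 (Hspa9 with Afg3l2), and most lie near 0.

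Of all genes in the table, those most like Hspa9 over the 25 mice were Cyc1, the cytochrome c1 of complex III (r 0.80), Etfa, a subunit of the electron transfer flavoprotein (r 0.80), and the muscle homeobox gene Six4 (r 0.78). These values were 0.82, 0.75 and 0.76 without the 2 farthest mice. For Lonp1 the nearest genes were Sema6c (r 0.69), Polg, the polymerase of mitochondrial DNA (r 0.68), and Zfp768 (r 0.68). For Clpx they were Garre1 (r 0.80), Myh14 (r 0.77) and Acacb, the acetyl-CoA carboxylase of the mitochondrial surface (r 0.74). Htra2 was nearest to Bcat2, the mitochondrial branched-chain aminotransferase (r 0.69), Prkag1, a subunit of AMPK (r 0.67), and Med22 (r 0.65). Afg3l2 was nearest to Msra, a methionine sulfoxide reductase (r 0.73), Ece1 (r 0.68) and the fast myosin Myh1 (r 0.66). Since each was the highest of 8828 correlations over 25 mice, these are given as a description.

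The remaining members had nearest genes of other kinds. Hspd1 was nearest to Egln3, a prolyl hydroxylase of the hypoxia response (r 0.74), Garem1 (r 0.72) and Dag1, dystroglycan (r 0.68). Trap1 was nearest to Grk3 (r 0.67), Araf (r 0.67) and Exoc3 (r 0.66), Clpp to Babam1 (r 0.66), the copper chaperone Atox1 (r 0.61) and 8430426J06Rik (r 0.60), and Yme1l1 to 2310001H17Rik (r 0.75), Eloc, elongin C (r 0.69), and Aldoart1 (r 0.67). No nearest gene of one member was that of another. Without the 2 mice farthest from the member's median, r was 0.60 for Hspd1 with Egln3 and 0.54 for Lonp1 with Polg. It was 0.56 for Yme1l1 with 2310001H17Rik and 0.39 for Clpp with 8430426J06Rik. For Trap1 with Araf (0.77) and Afg3l2 with Msra (0.80) it was higher than over all mice. The number of genes with an r of at least 0.5 ran from 45 for Clpp to 273 for Hspa9.

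The genes nearest to Hspe1 had lower r without the mice of lowest Hspe1. They were Uxs1, an enzyme of UDP-xylose synthesis (r 0.78, rho 0.48), Mettl21e, a muscle methyltransferase (r 0.69, rho 0.32), and the small GTPase Rhoq (r 0.68, rho 0.44). Without Control 19 and Thymol 6, r was 0.45, 0.34 and 0.52. Mettl21e was at 0.52 log2 CPM in Control 19, 0.38 in Thymol 6 and 0.88 in Thymol 16, and between 1.68 and 4.55 in the other 22 mice. Uxs1 was at 2.87 in Control 19 and 2.78 in Thymol 6, while Thymol 16, at 3.41, lay inside the range of the other 22 mice (3.34 to 4.28). Rhoq, on chromosome 17, was at 6.90 in Control 19, 7.13 in Thymol 6 and 6.95 in Thymol 16. In the other 22 mice Rhoq lay between 7.15 and 7.54. Uxs1 and Mettl21e lie on the chromosome of Hspe1, with starts 11.3 and 10.9 Mb away, and 1.48% of the genes of the table lay within 20 Mb of Hspe1. Of the 118 genes with an r of at least 0.5 to Hspe1, 3 lay in that window. Of the 103 genes with an r of at most -0.5, 5 lay there.

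Finally, each member was compared with 10 measures per mouse, namely the mean log2 CPM of 8 lists (mitochondrial content, slow fibre, skeletal muscle, fat cell, leukocyte, endothelial, fibroblast and Schwann cell), the number of reads and the mitochondrial share of reads. Of these 100 relations none passed an adjusted p of 0.05. The closest was that of Hspa9 with mitochondrial content, at an r of 0.63 (permutation p = 0.00058, adjusted p = 0.0580; rho 0.56, p = 0.00393, adjusted p = 0.341), with 0.73 within Control, 0.58 within Thymol and 0.64 without 2 mice. The next was that of Clpx with the leukocyte list, at an r of -0.59 (permutation p = 0.00279, adjusted p = 0.139; rho -0.48, p = 0.0194, adjusted p = 0.445), with -0.80 within Control, -0.33 within Thymol and -0.44 without 2 mice. Control and Thymol overlapped in all 10 measures. The leukocyte list ranged from 3.63 to 5.89 log2 CPM in Control and from 3.77 to 5.43 in Thymol, and 7 of its 9 genes were in the table.

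The genes around the members in the same pathways were read from lists, with counts by limma. The lists were chosen with earlier results of these data known. Counts within them are therefore a description, and no list was tested as a set. Over all 8829 genes, 4375 were higher and 4454 lower with thymol. No gene of any list passed an adjusted p of 0.05. Of 14 co-chaperones and assembly factors, 9 were higher and 5 lower with thymol, with a median log2 fold change of 0.045. At an unadjusted p of 0.05, 3 of the 14 were higher, against 1.83% of all genes, and none was lower. Among them was Grpel2, a nucleotide exchange factor of Hspa9, which averaged 2.04 ± 0.47 (SD) log2 CPM over the 11 Control mice and 2.55 ± 0.31 (SD) over the 14 Thymol mice, a log2 fold change of 0.51 ± 0.16 (SE; unadjusted p = 0.00332; adjusted p = 0.9999, limma). Clpb, a disaggregase, went from 5.08 ± 0.22 to 5.31 ± 0.16, a log2 fold change of 0.23 ± 0.077 (SE; unadjusted p = 0.00630; adjusted p = 0.9999, limma). The lower values of Atpaf2 (-0.20) and Dnajc19 (-0.025) did not pass.

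Of 14 other proteases of the organelle listed, 13 were in the table. Of these 13, 2 were higher and 11 lower, with a median of -0.017. Pmpcb, a subunit of the peptidase that removes targeting sequences, was lower by 0.15 on the log2 scale at an unadjusted p of 0.0466 (adjusted p = 0.9999, limma). The differences of Spg7, the partner of Afg3l2 (-0.085), Xpnpep3 (0.17) and Oma1, the stress-activated protease of the inner membrane (0.024), did not pass an unadjusted p of 0.05. Of 30 import genes listed, 26 were in the table. Of these 26, 19 were higher and 7 lower, with a median of 0.042, and none passed an unadjusted p of 0.05. The import genes with the smallest p were Timm10 (0.15) and Mtx1 (0.18) above, and Tomm40 (-0.16) and Tomm20 (-0.14) below.

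Of 33 stress response genes listed, only 20 were in the table. Of these 20, 8 were higher and 12 lower, with a median of -0.030. The CHOP gene Ddit3 lay between 2.73 and 5.08 log2 CPM in Control (median 4.69) and between 3.91 and 5.19 in Thymol (median 4.79), and its lowest value was that of Control 19. The other Control mice lay between 4.34 (Control 1) and 5.08 (Control 14). The log2 fold change of Ddit3 was 0.20 ± 0.18 (SE; 95% confidence interval -0.17 to 0.57; unadjusted p = 0.279; adjusted p = 0.9999, limma). This difference includes Control 19, and it was not computed without that mouse. At an unadjusted p of 0.05, 2 of the 20 were lower, against 1.70% of all genes, and none was higher. Ppp1r15a, which restarts translation after stress, had a log2 fold change of -0.40 ± 0.14 (SE; unadjusted p = 0.00906; adjusted p = 0.9999, limma), and Hsf1, the heat shock factor, one of -0.19 ± 0.089 (SE; unadjusted p = 0.0406; adjusted p = 0.9999, limma). The kinases Eif2ak4 (0.20) and Eif2ak1 (0.085) were the 2 with the smallest p above 0.

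The content list had 7 genes higher and 3 lower, with a median of 0.014. Its outer-membrane channel gene Vdac3 was higher by 0.17 at an unadjusted p of 0.0264 (adjusted p = 0.9999, limma), and the differences of Tfam (0.13) and Vdac1 (-0.028) did not pass. Of the 7 lists of cell and fibre types, the median log2 fold changes were -0.0012 for skeletal muscle, -0.26 for slow fibre, 0.0034 for fat cell, -0.030 for leukocyte, -0.079 for endothelial, -0.15 for fibroblast and -0.31 for Schwann cell genes. The part of these cells in the members' values was not tested beyond the 100 relations above.

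**Figure D5:**
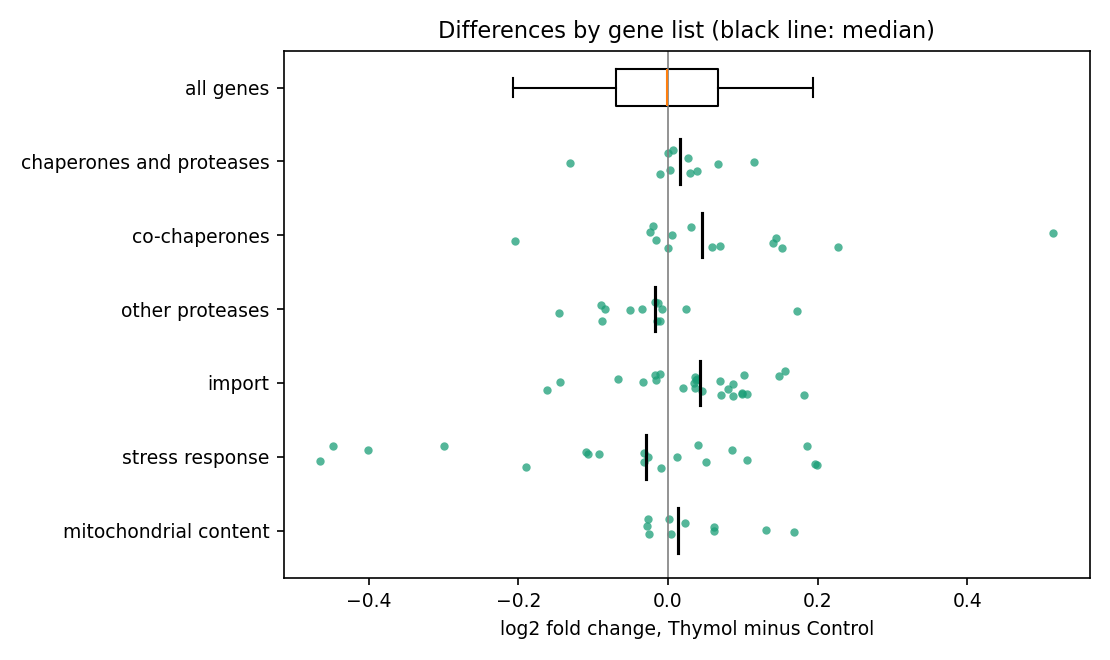
Log2 fold change, Thymol minus Control, of the genes of 6 lists (points) beside all 8829 genes (box: 25th to 75th percentile; whiskers: 5th to 95th percentile), with a black line at the median of each list and an orange one at that of all genes. The 10 chaperones and proteases lie between -0.13 and 0.11, within the whiskers of all genes at -0.21 and 0.19.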

How the data were processed

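Per the labels and the study's methods, QuantSeq 3' FWD libraries were made from total RNA; STAR 2.5.3 and HTSeq 0.6.1 with build GRCm38 are named in the submitters' processing notes. The authors deposited 1 table of normalised log2 CPM values for 25 libraries. Comparison columns were not present. Whole reads were recovered for 100% of the values (tolerance 0.05 reads), with 2 reads added per library of mean size before the log, and all 8829 genes had at least 30 reads in at least 6 libraries. The range and median of depth over the libraries are in the report; intervals of shares cover counting error only, since reads carried no molecular identifiers.

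The groups were compared by limma 3.58.1 (R 4.3.3) on the deposited log2 values, with a mean-variance trend, two-sided, and Benjamini-Hochberg adjustment over all genes. The study used a count model; the unit called for limma. Correlations used numpy 2.4.6 and two-sided permutation tests. The scripts were tested on simulated data. Named genes were the members, the 3 genes of highest r to each, partner pairs and the 3 highest and lowest pairs, Ddit3, and in each other list the 2 genes of smallest p in each direction; cell type lists are given by their medians. Some genes that this rule names are not reported here. Members and lists were chosen with earlier results of these data known. Positions came from GENCODE M21 and promoter sequences from RefSeq (GRCm38.p6). Mice were taken as separate samples, 1 library each. Alternatives were other scalings, pseudocounts, filters, tests, covariates and sets of mice.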

Additional observations from a re-analysis of the deposited data

How the results depend on the processing

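No member and no gene passed an adjusted p of 0.05 by limma in any of 13 alternatives or with any of the 25 mice left out; genes with an unadjusted p under 0.05 numbered 233 to 346 and 287 to 348, and members 0. The count of 233 came from the filter that kept the 75% of genes with the highest mean, so fewer genes were tested there. Signs of differences near 0 changed. The difference of Yme1l1 was -0.0042 by voom on recovered reads, -0.011 with sample weights and -0.0019 with the slow fibre list as a covariate, and that of Lonp1 was -0.00033 with sample weights. Without Control 18, Control 19 and Thymol 20 together, Hspe1 was at -0.050, Lonp1 at -0.013, Yme1l1 at -0.0044 and Afg3l2 at -0.013, and the pairs with an unadjusted p under 0.05 fell from 3 to 1. With each mouse left out in turn, the difference ran from -0.0024 to 0.067 for Hspd1, -0.064 to 0.23 for Hspe1, -0.029 to 0.0082 for Hspa9, -0.023 to 0.049 for Trap1, -0.020 to 0.071 for Clpx, -0.024 to 0.032 for Lonp1 and -0.041 to 0.024 for Yme1l1. The signs of Clpp (0.028 without Control 10 to 0.10 without Control 23), Afg3l2 (0.0066 without Thymol 7 to 0.062 without Control 31) and Htra2 (-0.16 to -0.094) stayed. The r of Hspd1 with Hspe1 ran from -0.36 to -0.12 in the same way. The cause of these changes was not tested.

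With the first number of the titles as a replicate block, Trap1 was at -0.014, no gene passed, and 7 pairs of members passed an adjusted and 15 an unadjusted p of 0.05. This block leaves 8 residual degrees of freedom in place of 23 and sets the residuals of 9 mice to 0, which shuffles within groups do not take into account. Mice of both groups with the same number had a mean correlation of -0.0022 (9 pairs, -0.18 to 0.10), beside 0.00021 for 145 other pairs. The labels do not say what the number marks, and 9 pairs are too few to decide whether it pairs the mice.

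Low counts limit Hspe1 (25 to 157 reads) and Htra2 (44 to 90), and shared sequence limits Hspd1 and Hspe1.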
